A study of Caenorhabditis elegans with 2 samples.

Results

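Nuclear hormone receptors are transcription factors with a zinc-finger DNA-binding domain and, in most members, a ligand-binding domain. Caenorhabditis elegans carries an unusually large family of them, most of which descend from an ancestor like HNF4 and are called supplementary receptors. The family is known in this animal for the control of fat storage, detoxification, immunity, moulting and development. The members described here are the protein-coding genes whose Ensembl symbol is nhr followed by a number, except nhr-10, nhr-13, nhr-23, nhr-25, nhr-49, nhr-66, nhr-68, nhr-73, nhr-74, nhr-80, nhr-85 and nhr-114. This gave 257 members of 19973 protein-coding genes on the nuclear chromosomes. A gene was called bound if the summit of a reproducible SMA-9 peak lay within 1000 bp of the 5' end of any of its annotated transcripts. By this rule 92 members were bound and 165 were not. Of the 12 nhr genes left out, 11 were bound, so the share among the members is not that of every nhr gene.

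SMA-9, a zinc-finger protein related to Drosophila Schnurri, works in the BMP-like DBL-1 pathway, which sets body size and patterns the postembryonic mesoderm. Its binding was mapped by ChIP-seq with an antibody against GFP in whole hermaphrodite L2 larvae of strain LW1254, 22 hours after release from L1 starvation. The study has 1 group of 2 biological replicates and names no treatment, so no contrast between conditions exists and no p-value is given. Both replicates carry the integrated transgene jjIs1254, with sma-9C2::gfp and unc-119(+), in an unc-119(ed4) background. The peaks therefore concern the tagged protein from this 1 line, and DNA recovered without it was not told apart here. The promoter that drives the fusion is not given in the sources used here, and whole larvae mix all cell types, so a peak cannot be placed in a tissue. The expression of the members and the control library were not analysed here.

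The list called reproducible here held 7065 peaks and was deposited as thresholded by IDR, for irreproducible discovery rate. IDR weighs how alike calls rank between lists. At the bound members the rank by signal was the same in this list and among the pooled calls, as at nhr-172 (7031 in both). At these genes the list thus matched the strongest pooled calls, and its peaks need not each have been chosen for agreement between replicates. Not every peak in the reproducible list had a call of each replicate at its summit. The authors' peak signal, which has no unit, ran upward from 61.96 in that list with a median of 109. Each replicate's own list and the pooled list held 30000 calls, with 17 mitochondrial calls in replicate 2. These longer lists were deposited as peaks together with background, so a call in them need not be a peak. The lists give no read counts, so the depth of each library is unknown, and a signal can be compared only within a list. Coordinates are 1-based on ce11, which is WBcel235, and distances are from the nearest annotated 5' end, with negative values upstream. Ranges after shares are 95% Wilson intervals. They cover counting error over genes, which are not replicates and often share a peak or a gene duplication.

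The sequences under the 4 strongest peaks at members are shown because these carry the highest signals of the family. Those of nhr-119 and nhr-258 are added because they are the members among the 10 of highest signal whose summit window holds the GATA factor motif TGATAA. Each runs from 50 bp before to 50 bp after the summit and is read 5' to 3' on the strand of the gene from the RefSeq WBcel235 genome. Capitals mark the GATA motif, the Smad half-site with its flank (GTCTG) and the repeat GAGAGA, on either strand. None of these windows touches an annotated UTR.
nhr-14, chrX:8475299-8475399, minus strand: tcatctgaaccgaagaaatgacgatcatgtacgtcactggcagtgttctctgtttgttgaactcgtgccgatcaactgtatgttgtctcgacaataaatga
nhr-58, chrV:532150-532250, plus strand: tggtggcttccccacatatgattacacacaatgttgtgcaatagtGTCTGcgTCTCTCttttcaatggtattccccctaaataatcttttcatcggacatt
nhr-48, chrX:15707533-15707633, plus strand: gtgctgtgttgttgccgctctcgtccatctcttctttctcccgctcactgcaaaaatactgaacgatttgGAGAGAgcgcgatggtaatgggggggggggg
nhr-1, chrX:17513697-17513797, plus strand: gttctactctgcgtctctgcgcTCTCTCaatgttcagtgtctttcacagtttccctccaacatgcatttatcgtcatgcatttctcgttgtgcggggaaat
nhr-119, chrII:2800973-2801073, minus strand: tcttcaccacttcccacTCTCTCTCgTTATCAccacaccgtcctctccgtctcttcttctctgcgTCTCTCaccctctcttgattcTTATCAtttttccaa
nhr-258, chrIV:8044705-8044805, plus strand: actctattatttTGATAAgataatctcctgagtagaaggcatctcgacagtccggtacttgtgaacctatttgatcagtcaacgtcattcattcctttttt
The windows of nhr-58, nhr-48, nhr-1 and nhr-119 hold GAGAGA or its complement TCTCTC, that of nhr-58 also holds GTCTG, and that of nhr-14 holds none of the motifs searched.

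SMA-9 summits lay near members more often than near protein-coding genes at large. Of the members 35.8% were bound (30.2 to 41.8%), against 20.2% of all protein-coding genes, 4036 of 19973. The strongest signal at bound members had a median of 124 and ran from 62.2 to 900, against a median of 122 over all bound genes. Of the 92 bound members 46 lay above that median and 9 (9.78%) had a signal of at least 329, the level that the top 10% of all bound genes reach. In the reproducible list the members' signals were thus close to those of all bound genes. With all pooled calls, background included, the median was 69.2 (95% interval 59.1 to 88.8) for members and 49.8 for all genes with a call.

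The excess over all genes was seen in most parts of the genome, but not in all of them. Members are concentrated on chromosome V, which carries 63.8% of them and 25.004% of all protein-coding genes. The central 33.3% of each autosome by length is called its center here and the outer parts its arms. In autosome centers 32 of 63 members were bound (50.8%, 38.8 to 62.7%), against 26.0% of all genes there. On autosome arms 49 of 172 were bound (28.5%, 22.3 to 35.6%), against 15.1% of all genes. On the X chromosome 11 of 22 were bound (50%, 30.7 to 69.3%), against 26.0% of all genes.

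On chromosome V the left and right arms differed in the members' share. In the center of V 20 of 40 members were bound (50%), against 25.8% of all genes there. On the arms of V, which hold 48.2% of the family, 41 of 124 were bound (33.1%, 25.4 to 41.7%), against 13.99% of all genes. The left arm of V had 32 of 76 members bound (42.1%, 31.6 to 53.3%), against 17.4% of all genes. The right arm of V had 9 of 48 bound (18.8%, 10.2 to 31.9%), against 10.8% of all genes, a background that lies within the interval. The difference between the arms was not tested.

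Outside V and X the picture was mixed. In the centers of chromosomes I to IV 12 of 23 members were bound (52.2%, 33.0 to 70.8%), against 26.1% of all genes. On their arms 8 of 48 were bound (16.7%, 8.70 to 29.6%), close to the 15.6% of all genes. On chromosome IV 13 of 32 members were bound (40.6%), against 18.1% of all genes. Chromosome II had 4 of 15 bound (26.7%, 10.9 to 52.0%), against 19.7% of all genes, which lies within the interval. Chromosome III had 1 of 6 bound (16.7%, 3.01 to 56.4%), against 22.5% of all genes, also within the interval. Its genes nhr-10 and nhr-80, which the rule leaves out, were bound. On chromosome I 2 of 18 were bound (11.1%, 3.10 to 32.8%), against 19.0% of all genes, which lies within the interval. With the 5 nhr genes of chromosome I that the rule leaves out, 4 of them bound, the count was 6 of 23 (26.1%), so the direction turns with them. Both bound members of chromosome I, nhr-62 and nhr-69, are receptors with known functions described below.

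**Figure D1:**
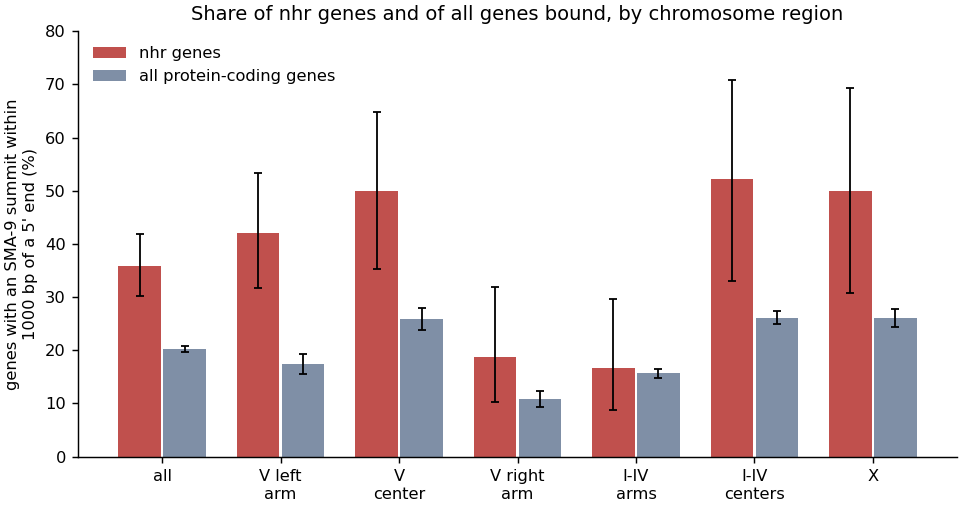
Share of genes with an SMA-9 summit within 1000 bp of a 5' end (%), by chromosome region, for nhr members (left bar of each pair) and all protein-coding genes (right bar). Error bars are 95% Wilson intervals. The members' bar is about as high as the other bar on the arms of I to IV (16.7% against 15.6%) and above it elsewhere, from 18.8% on the right arm of V to 52.2% in the centers of I to IV.

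Genes with more annotated 5' ends offer more sequence for a summit to fall near, and members averaged 1.64 ends against 1.49 for all genes. Of members with 1 end 44 of 164 were bound (26.8%, 20.6 to 34.1%), against 16.3% of all such genes. Of members with 2 ends 29 of 56 were bound (51.8%), against 25.8% of all such genes. Of members with 3 or more ends 19 of 37 were bound (51.4%, 35.9 to 66.6%), against 38.1%, which lies within the interval. On the arms of V, members with 1 end were bound at 22 of 79 (27.8%, 19.2 to 38.6%), against 10.9% of all such genes.

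The space upstream of the genes also differed, with a median of 1590 bp to the next gene for members and 980 bp for all genes. The members' share varied little with it. With less than 1000 bp upstream 33 of 94 members were bound (35.1%), against 20.9% of all such genes. With 1000 to 3000 bp 30 of 89 members were bound (33.7%), against 19.8%. With 3000 bp or more 29 of 74 members were bound (39.2%), against 19.3%.

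A peak between divergent genes can be credited to both. Where the upstream neighbour was on the other strand 45 members were bound and 56 were not (44.6% bound), against 24.7% of all such genes. Where it was on the same strand 47 of 156 members were bound (30.1%, 23.5 to 37.7%), against 16.4%. The strongest summit of 75 bound members (81.5%) lay near no other protein-coding gene by the same rule, against 62.1% of all bound genes. A summit near that gene alone was held by 77 members (30.0%), against 12.9% of all genes. Peaks credited to a neighbour as well were thus less common at members than at bound genes at large.

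The strongest members are next described with the signal in the pooled data, which is the value of the reproducible list, and in each replicate. The gene nhr-14, which acts in iron uptake and immunity, had the strongest peak, at X 8475128 to 8475508, in its own intron 827 bp downstream of a 5' end. Its pooled signal was 900, with 446 in replicate 1 and 481 in replicate 2, and it ranked 84 and 39 in those lists, mitochondrial calls included. Another peak of signal 659 lay at -1458 bp from the outermost 5' end of nhr-14, outside the window of the rule. The nhr-58 peak at V 532084 to 532320, 59 bp upstream of the 5' end, had a signal of 892, with 467 in replicate 1 and 425 in replicate 2. Its neighbour nhr-132, which starts 375 bp past nhr-58, had a peak of its own with a signal of 269.7. The nhr-14 and nhr-58 signals were above those of all other members in both replicates.

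The next 5 were mostly on the X chromosome. The gene nhr-48, a relative of the dafachronic acid receptor gene daf-12, had a peak at X 15707380 to 15707839, 630 bp upstream, with a signal of 684 (347 in replicate 1 and 339 in replicate 2). The peak of nhr-1 at X 17513623 to 17513897, 316 bp upstream, had a signal of 647 (356 in replicate 1 and 275 in replicate 2). The gene nhr-31, needed for the tubular excretory cell, had a peak in its intron at IV 8028345 to 8028633 with a signal of 556 (310 in replicate 1 and 255 in replicate 2). With nhr-14, X thus held 3 of the 5 strongest. The peak of nhr-3 at X 14557398 to 14557689 lay at -977 bp, near the edge of the window, with a signal of 498 (247 in replicate 1 and 253 in replicate 2). The peak of nhr-35 at X 4532145 to 4532412, 410 bp upstream, had a signal of 415, with 274 in replicate 1 and 143 in replicate 2. The X chromosome, with 22 of the 257 members, carried 5 of the 7 strongest. Of all 4036 bound protein-coding genes 711 were on X, and the share of X among the strongest of them was not counted. Whether strong peaks on X are particular to members was therefore not tested. The other 6 bound members on X, nhr-32, nhr-40, nhr-137, nhr-255, nhr-71 and nhr-120, had signals between 106 and 226.

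Of the 12 strongest the last 5 had signals between 318 and 357. The gene nhr-57, a target of the hypoxia factor HIF-1, had a peak at V 4131496 to 4131755, 241 bp upstream, with a signal of 357 (193 in replicate 1 and 175 in replicate 2). The peak of nhr-119 at II 2800900 to 2801134, 423 bp upstream, had a signal of 340 (166 in replicate 1 and 172 in replicate 2). The peak of nhr-258 at IV 8044663 to 8044861, 183 bp upstream, had a signal of 328 (169 in replicate 1 and 165 in replicate 2). The genes nhr-31 and nhr-258 lie next to each other, and none of the peaks counted was shared by them. The strongest nhr-34 peak within the window, at IV 9672608 to 9672770, had a signal of 321, with 217 in replicate 1 and 112 in replicate 2. The nhr-50 peak at V 16000564 to 16000751, 14 bp upstream, had a signal of 318 (159 in replicate 1 and 155 in replicate 2). Between the replicates nhr-35 and nhr-34 differed most of these 12, both with the higher value in replicate 1.

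**Figure D2:**
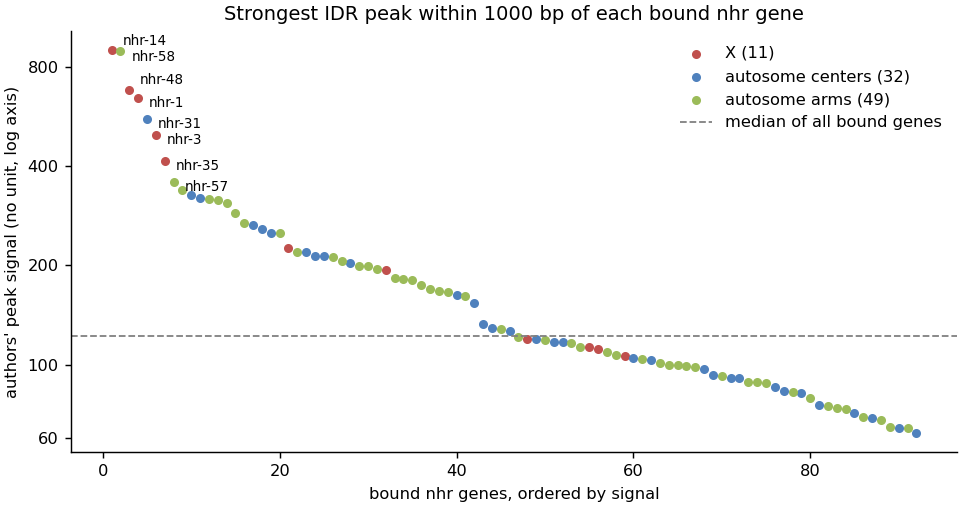
Authors' peak signal (no unit, log axis) of the strongest reproducible peak within 1000 bp of each of the 92 bound nhr members, ordered from highest to lowest and coloured by chromosome region. On X lie 5 of the 7 strongest, and the members cross the median of all bound genes (122, dashed line) at the middle of their order. The share of X among the strongest of all bound genes was not counted.

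Of a list of 13 members with known functions 7 were bound (53.8%, 29.1 to 76.8%), against a background of 20.2% of all genes. The list is not complete, and this background was not matched for 5' ends or chromosome region. The 35.8% of the whole family lies within the interval. Besides nhr-14, nhr-31 and nhr-57 the bound members of this list were nhr-40, nhr-60, nhr-62 and nhr-69. The gene nhr-62, needed for the longer life of food-restricted worms, had a signal of 219.7 (103 in replicate 1 and 118 in replicate 2) at I 9842461 to 9842596, in its intron. The gene nhr-40, which acts in embryonic and muscle development, had a signal of 194 (102 in replicate 1 and 118 in replicate 2) at X 2598969 to 2599091. The gene nhr-69, which acts with the Smad DAF-8, had a signal of 103 (44.7 in replicate 1 and 49.6 in replicate 2), 803 bp upstream. The gene nhr-60, which acts in the epidermal seam cells, had a signal of 82.7 (48.02 in replicate 1 and 29.7 in replicate 2), 908 bp upstream. The last of these lay below the median of all bound genes, as did nhr-69.

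The other 6 of these 13 were not bound. The nearest reproducible summit lay 1335 bp from nhr-86, which acts in detoxification and immune responses, and 2344 bp from nhr-45, which acts in the defence against mitochondrial stress. It lay 4083 bp from nhr-2, a gene of the early embryo, 8889 bp from nhr-176, which acts in cytochrome P450 induction, and 9384 bp from nhr-64, a gene of fat metabolism. It lay 27394 bp from nhr-76, which acts in fat loss driven by serotonin. The pooled list held calls within 1000 bp of nhr-86 (signal 59.3) and nhr-176 (48.7), with −log10 q-values of 3.69 and 2.53. The nhr-45 call (22.2) had a −log10 q-value of 0.372, which is at background, and the other 3 had no call there.

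Of the 7 members with orthologues outside nematodes 3 were bound (42.9%, 15.8 to 75.0%). The interval holds both the 35.8% of the family and the 20.2% of all genes. They were nhr-48, nhr-8 and nhr-41. The gene nhr-8, a relative of daf-12 that acts in cholesterol balance and the response to toxins, had a signal of 133 (58.99 in replicate 1 and 73.8 in replicate 2) at IV 7710859 to 7711128, 6 bp downstream of a 5' end. The gene nhr-41, the orthologue of the vertebrate TR2 and TR4 receptors, had a signal of 98.1 (57.1 in replicate 1 and 41.8 in replicate 2) in its intron. Not bound were nhr-6, the NR4A orthologue that acts in the spermatheca, nhr-67, the tailless orthologue that acts in the anchor cell, nhr-91, the GCNF orthologue, and nhr-111. Their nearest summits were at 1839, 9663, 1056 and 3706 bp in that order, and only nhr-91 had a pooled call within 1000 bp (signal 40.6).

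Of 5 receptors named outside the nhr series 2 were bound (40%, 11.8 to 76.9%), against 20.2% of all genes. They were daf-12 (signal 70.3, with 43.5 in replicate 1 and 26.3 in replicate 2), which controls dauer entry, and sex-1 (64.3, with 23.2 in replicate 1 and 34.8 in replicate 2), an X-chromosome signal of sex determination. Both values are near the lowest of the reproducible list, and fax-1, odr-7 and unc-55, which set neuron identity, were not bound. The genes daf-12 and sex-1 lie on X, where 26.0% of all genes were bound, and daf-12 has 9 annotated 5' ends. Of 3 cofactor genes 2 were bound (66.7%, 20.8 to 93.9%), again against 20.2% of all genes. Each of these has 3 or more annotated 5' ends, and 38.1% of all such genes were bound. The CBP/p300 gene cbp-1 had a signal of 718 (439 in replicate 1 and 297 in replicate 2). The DAF-12 corepressor gene din-1 had 6 summits within 1000 bp of its 6 annotated 5' ends. The strongest had a signal of 512 (290 in replicate 1 and 229 in replicate 2). The Mediator subunit gene mdt-15, a partner of several receptors in lipid metabolism, was not bound, with the nearest summit at 1565 bp.

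Most bound members had a single summit near their 5' ends, and 20 (21.7%) had several, against 14.2% of all bound genes. One summit was counted at 72 members, 2 at 14, 3 at 5 and 4 at nhr-34. The pooled signals at nhr-34 were 321, 301, 187 and 85.9, all in its introns. Stronger summits of the same gene, with signals of 501 and 354, lay 4433 and 5468 bp downstream of the outermost 5' end, beyond 1000 bp from any annotated end. Upstream of nhr-34 a peak of signal 371 lay at -2145 bp, also outside the window. The rule therefore counted only some of the binding at this gene.

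The other members with 3 summits were nhr-31, nhr-1, nhr-19, nhr-168 and nhr-3. At nhr-31 the signals were 556, 285 and 121, the first pair intronic. At nhr-1 they were 647, 69.5 and 64.1, so that 1 peak upstream of the gene was far above the others. At nhr-19 they were 259, 140 and 127, and at nhr-168 they were 203, 150 and 93.0. At nhr-3 they were 498, 105 and 68.9, with no replicate 1 call at the summit of the second.

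**Figure D3:**
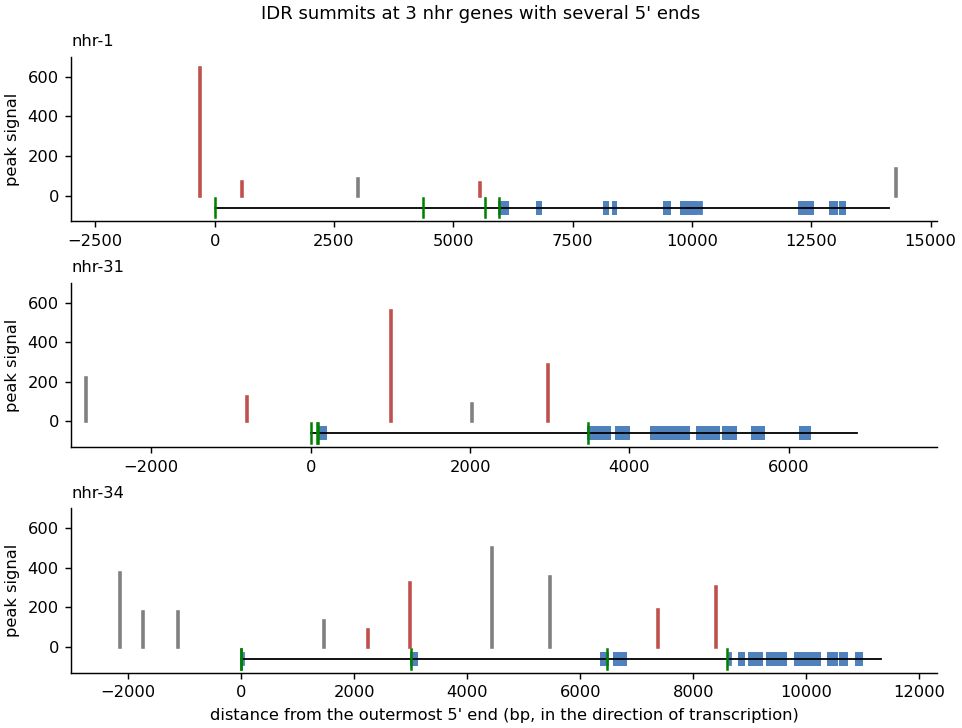
Reproducible SMA-9 summits at nhr-1, nhr-31 and nhr-34, as authors' peak signal (no unit) against distance from the outermost 5' end (bp, in the direction of transcription). Red lines are summits within 1000 bp of an annotated 5' end (green ticks), grey lines are other summits, and blue boxes are coding exons. The nhr-1 signal is mostly in 1 upstream summit (647), while nhr-34 has summits along its introns, the strongest (501) in grey.

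Within the window the summits of members lay closer to the 5' ends than those of bound genes at large. The strongest summit was a median of 196.5 bp away for members and 261.5 bp for all bound genes. It lay within 100 bp of the end at 32 members (34.8%), against 18.4% of all bound genes, 743 in number. Within 250 bp the shares were 57.6% for members and 48.1% for all bound genes. The summit was upstream at 71 members (77.2%), downstream at 20 and at the end itself at 1, against 83.7% upstream for all bound genes. The shift toward the end was also seen without shared promoters, counting both sides of the end together. Among summits near a single gene, 22 of 75 members (29.3%) and 18.3% of genes had it within 100 bp. On the arms of V 16 of 41 bound members (39.02%) and 24.4% of bound genes had it within 100 bp.

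An annotated 5' UTR was present at 90.2% of bound members and 89.6% of all bound genes. Among those with one the share within 100 bp was 37.3% for members and 19.7% for all bound genes. The length of the UTRs was not compared. In C. elegans many transcripts are trans-spliced, so the annotated end may lie downstream of where transcription starts. By location 63 of the strongest summits were intergenic, 18 lay in 5' UTRs, 11 in introns and 0 in coding exons or 3' UTRs. A shared summit was counted at each member, and for nhr-94, nhr-101 and nhr-148 the 5' UTR was that of another gene. Locations over all bound genes were not counted for comparison.

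**Figure D4:**
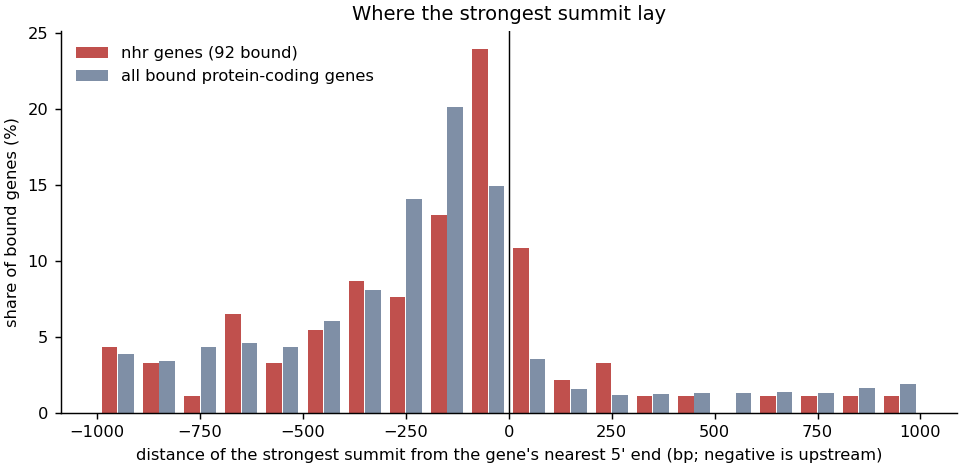
Share of bound genes (%) by the distance of the strongest summit from the nearest 5' end, in 100 bp bins (negative is upstream), for the 92 bound nhr members (left bar) and all bound protein-coding genes (right bar). The members peak in the 100 bp upstream of the end (23.9% against 14.9%) and all bound genes in the bin before it (20.1%, with 13.0% of members).

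Both replicates had a call at nearly all of the bound members. A call of each replicate contained the strongest summit of 87 of 92 members (94.6%, 87.9 to 97.7%), against 95.8% of all bound genes. A call among the strongest 7065 of each replicate did so for 72 members (78.3%), against 77.5% of all bound genes. The peak shared by nhr-94 and nhr-152, at V 7686315 to 7686477, had a pooled signal of 214 and 105 in replicate 2 but no replicate 1 call at its summit. The gene nhr-12 (82.2) also had none of replicate 1, and its replicate 2 signal was 51.9. The genes nhr-131 (168) and nhr-88 (99.6) had no replicate 2 call and replicate 1 signals of 98.4 and 51.2. Across the 87 members with both calls the signals correlated at 0.858 (Pearson's r, log2 scale) and 0.818 (Spearman's rho), over summits that were chosen with both replicates. These are descriptions, and for the 3868 such genes the values were 0.813 and 0.778. The member with the largest ratio between its replicates was nhr-105, named after its values were seen, with 22.6 in replicate 1, 87.9 in replicate 2 and a pooled signal of 85.3.

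**Figure D5:**
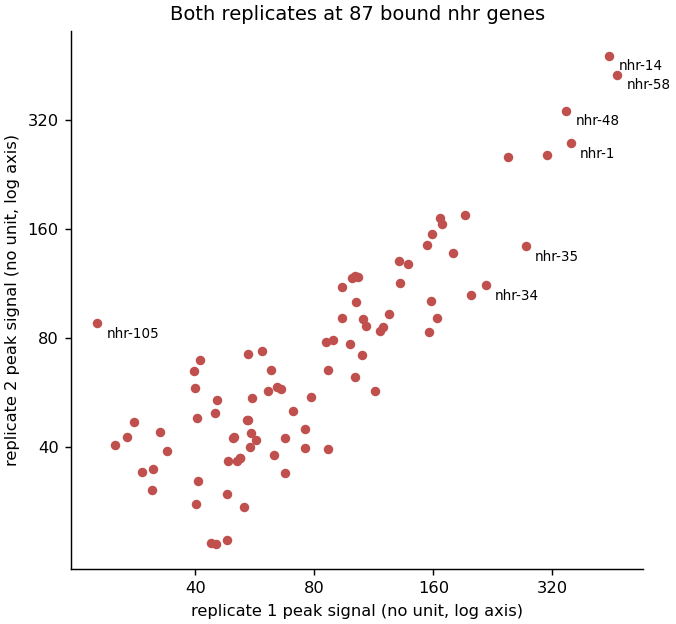
Authors' peak signal in replicate 2 against replicate 1 (no unit, log axes) at the strongest summit of the 87 bound nhr members with a call in both. Each point is a member. The points run along the diagonal up to nhr-14 (446 in replicate 1 and 481 in replicate 2), and 1 point lies far above it, nhr-105 at 22.6 and 87.9.

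Members often lie next to each other, and 135 had an nhr gene as a neighbour. Of these 43 were bound (31.9%, 24.6 to 40.1%), against 22.7% of all genes with an nhr neighbour and 18.8% of those that are not nhr genes. Of the other 122 members 49 were bound (40.2%, 31.9 to 49.03%), against 20.1% of all genes without an nhr neighbour. Tandem members were thus not bound more often than the other members. Only 3 peaks lay within 1000 bp of 5' ends of a pair of members, all on V. Besides nhr-94 and nhr-152, these were nhr-202 and nhr-201, with a signal of 99.9 (55.3 in replicate 1 and 43.7 in replicate 2), and nhr-263 and nhr-148, with a signal of 90.8 (52.0 in replicate 1 and 37.3 in replicate 2). Counting all nhr genes, 44 runs of adjacent genes were found, 32 of them on V. In 18 runs none was bound, in 6 all were, and in 20 some were. Runs of other genes were not counted for comparison. The longest, of 9 genes from nhr-185 to nhr-124 at V 3844429 to 3886204, had only nhr-158 bound. The 6 genes from nhr-51 to nhr-198 had none, whereas 4 of the 6 from nhr-99 to nhr-106 were bound. Adjacent members could therefore differ in binding.

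Some members outside the rule had a call in the pooled list of peaks and background. Of the 165 unbound members 80 (48.5%) had a pooled call within 1000 bp, against 33.8% of all unbound genes, and 85 had none. The strongest call had a q-value above 0.05 at 45 of the 80, so these are at background level. It had a q-value of at most 0.05 at the other 35, which is 21.2% of unbound members, against 11.2% of all unbound genes. The strongest such pooled calls were at nhr-61 (61.7), nhr-188 (61.2) and nhr-22 (60.1), next to the lowest signal of the reproducible list. Just above it were the weakest bound members, nhr-172 (62.2, with 29.3 in replicate 1 and 34.2 in replicate 2), nhr-270 (64.1) and nhr-138 (64.2). The nearest summit was just inside the window at nhr-62 (969 bp), nhr-112 (936 bp) and nhr-60 (908 bp). It was just outside at nhr-91 (1056 bp), nhr-186 (1166 bp) and nhr-116 (1240 bp). The signals ran on without a gap at the lower limit of the list, so a bound and an unbound member there can have nearly the same value.

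The share of bound members was higher than that of all genes at each of the 11 other settings tried. A window of 500 bp gave 29.6% of members, against 15.4% of all genes, and 2000 bp gave 41.6% against 27.6%. Counting only summits upstream of a 5' end gave 33.1% against 18.1%, and counting only the outermost 5' end gave 33.9% against 18.7%. Peak intervals that reached into the window, in place of summits, gave 36.2% against 21.1%. The ends of coding transcripts alone gave 35.4% against 20.2%, and peaks with a call in both replicates gave 34.2% against 19.4%. The stronger 3532 peaks gave 21.8% against 11.8%, and all pooled calls gave 66.9% against 47.1%. The strongest calls of replicate 2 alone gave 37.7% against 20.2%, with 85 of the 92 members still bound. Those of replicate 1 alone gave 33.9% against 20.0%, with 82 still bound. The full list of a replicate was not used for these, and the shares depend on where it is cut.

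Short motifs were searched on either strand within 50 bp of the 90 distinct strongest summits of members. The shares were set beside all 7065 reproducible summits and beside equal windows centred 100 bp upstream of all 19973 genes. GTCTG, a Smad half-site with its flank, was in 23 of the 90 windows (25.6%, 17.7 to 35.4%), against 18.6% of all summits and 9.42% of upstream windows. GAGAGA was in 27 (30.0%, 21.5 to 40.1%), against 25.6% and 9.03%. TGATAA was in 15 (16.7%), against 20.3% and 12.5%. The values of all summits lie within the members' intervals for these 3 motifs. AGGTCA, the half-site that many nuclear receptors bind, was in 3 (3.33%), against 4.43% and 3.34%. The GC-rich Smad site GGCGCC was in 0 of 90, which allows a share of up to 4.09%, against 2.42% of all summits and 0.646% of upstream windows. The Smad palindrome GTCTAGAC was also in 0, against 0.113% and 0.110%. No motif contains another. The GC content was 42.5% in the members' windows, 44.0% at all summits and 34.1% in the upstream windows, and its part in these shares was not tested.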

How the data were processed

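ChIP-seq peak lists of 2 biological replicates were used. Per the file headers, each replicate's calls, a pooled list and the IDR list were deposited by the authors on ce11, and lists on ce10 were not used. The authors' signal is the peak caller's own value, and the deposited −log10 q-value did not rank the IDR peaks. The sources used here name no aligner, peak caller or IDR threshold. Genes and 5' ends (29784) came from Ensembl 115, and sequence from the RefSeq WBcel235 genome.

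Scripts in Python 3.11.15 with numpy 2.4.6 and scipy 1.17.1 counted summits near 5' ends, and the counting was tested on simulated data. Shares carry 95% Wilson intervals, with no test, since 1 group allows none. A replicate call was taken where it contained the IDR summit. The members and gene lists were chosen with earlier results of these data known. Named members are the 12 of highest signal, the lists, those at the limits of the rule, the weakest bound, the strongest unbound, those with 3 or more summits, those lacking a replicate's call and those sharing a peak. A planned grouping by the DNA-binding domain's P-box was not run.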

Additional observations from a re-analysis of the deposited data

How the results depend on the processing

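The share of members bound moved by more than its interval with a window of 500 bp (29.6%), with the stronger peaks alone (21.8%) and with all pooled calls (66.9%). In autosome centers it was 28.6% with the stronger peaks and 84.1% with all pooled calls, and on the arms of V 18.5% and 59.7%. In each of these the members' share was above that of all genes. The median signal was 201 with the stronger peaks and 69.2 with all pooled calls, against 185 and 49.8 for all bound genes, and 58.7 to 75.8 when 1 replicate was left out, on each list's own scale. The share with a call in both replicates was 78.3% when only the strongest calls counted. These settings admit fewer or more peaks by construction. The other alternatives stayed within the intervals. The settings that use only coding transcripts or only peaks called in both replicates were chosen after seeing the data. No paired analysis was possible because there is 1 group. Library depth is unknown, larvae without the transgene were not analysed here, and genes were not matched for expression. Any part of these in the shares was not tested.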

Other observations

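The word content of the summit windows was checked for repeated sequence, since members arose by duplication. Of the 92 bound members, 1 (nhr-41) had any 36 bp stretch of its strongest summit window at another place in the genome. Of the unbound members, 37 (22.4%) had a reproducible summit between 1000 and 3000 bp from a 5' end, against 17.1% of all unbound genes, and 5 (3.03%) had one inside the gene, against 2.80%. The median distance to the nearest reproducible summit was 2990 bp over all members, against 6165 bp over all protein-coding genes.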
